A study of Mus musculus with 18 samples.

Results

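Fetal DN3 thymocytes were compared with adult DN3 thymocytes of the mouse, as fetal minus adult, over every probe set of the deposited table. The members were the 3 arrays titled Fetal DN3 and the 3 titled Adult DN3, 6 of the 18 arrays in the series. The other 12 arrays held early thymic progenitors (ETP) and DN2 cells of both ages, 3 arrays for each group. Adult cells came from C57BL/6 mice, female by label and 4 to 6 weeks old, and fetal cells from C57BL/6 embryos whose sex the labels do not give. The labels stage the embryos at E14.5 and the study's methods 1 day later. The labels name no treatment and no genetic change in any group. Thymocytes were depleted of cells bearing lineage markers, among them CD8α, CD3ε, NK1.1, CD11b and TER119, and DN3 cells were sorted as CD44- to CD44 intermediate, CD25+. By the study's methods each adult array received RNA pooled from 4 sorts and each fetal array RNA from 2, after 2 rounds of amplification. The size of the pool thus went with age. The labels call the 3 arrays of a group biological replicates and the methods call them technical, so that every p measures the spread between arrays, which may be technical.

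DN3 is the stage at which a thymocyte is committed to the T lineage and rearranges the β chain gene of its T cell receptor. A productive β chain joins the invariant pre-Tα chain and the CD3 chains in the pre-T cell receptor, whose signal lets the cell divide and pass the checkpoint of β-selection. RAG proteins cut the gene segments, end joining factors close the break, and terminal transferase, the product of *Dntt*, adds nucleotides without a template at the joint. Fetal thymocytes are known for receptors that hold few such additions and for waves of γδ T cells with fixed receptors.

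Each value is a GC-RMA signal on the log2 scale, from which the median of that probe set over the 18 arrays had been taken away. A value of 0 is therefore the middle of the 18 arrays, and levels of different genes cannot be set against each other. By itself a 0 shows neither presence nor absence of a transcript. Where adult arrays lay flat near 0, as for *Pdlim4* (SD 0.01), that value may be background, which centred values cannot show. Differences are given in log2 with the SE of the fit and rest on 3 arrays per group. The SE takes its spread from all 18 arrays and not from the 6 DN3 arrays alone. For a gene that varied more at DN3 than elsewhere it is therefore smaller than the DN3 arrays would give. *Fbln2*, for example, had an SD of 1.20 in adult and 0.50 in fetal DN3 beside an SE of 0.42. *Pdlim4* and *Cd2* had fetal SDs of 0.20 and 0.39 beside SEs of 0.07 and 0.13. A gene was called higher or lower when limma gave it an adjusted p below 0.05 and its groups differed 1.8-fold or more. In bulk RNA fewer cells that express a gene and less of its RNA per cell cannot be told apart.

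Some arrays stood apart or went against their label. In adult DN3 replicates 1, 2 and 3 the values of *Xist*, which is transcribed from the silenced X chromosome, were 1.59, -11.28 and -11.34. The Y-linked gene *Uty* stood at -0.82, 1.59 and 1.61 in the same arrays, so that replicates 2 and 3 differed from the label female. *Cd44*, whose product was gated against in this sort, stood at -7.97 and -7.84 in adult replicates 1 and 2 and at -0.86 in replicate 3. That last value lay within the range of adult DN2, -0.97 to 0.44. *Kit* in replicate 3 stood at 0.00 against -2.58 and -2.09 in replicates 1 and 2. Over all probe sets adult replicate 3 lay at a root mean square distance of 0.464 from the mean of adult DN2. From the mean of the other 2 arrays of its own group it lay slightly further, at 0.499. The first is a mean of 3 arrays and the second of 2, which by itself favours the first. Adult arrays spread more than fetal arrays, with a pooled SD of 0.414 against 0.260 and correlations of 0.479 to 0.744 against 0.809 to 0.878. The number of sorts pooled per array differed between the ages as well, and its part in the spread was not tested. In the fetal group *Hbb-y*, a globin gene of the embryo, stood at -0.07, 5.97 and 2.35 and the heme synthesis gene *Alas2* at -0.04, 3.77 and 6.40. Fetal replicates 2 and 3 thus carried erythroid transcripts that replicate 1 did not show above the median.

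**Figure D1:**
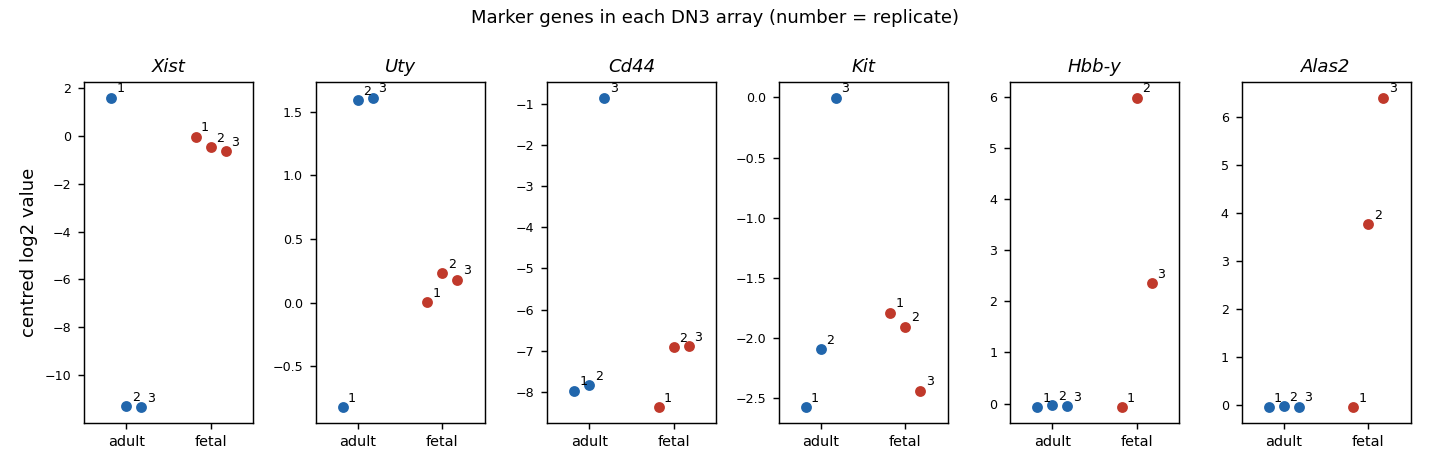
Centred log2 values of 6 marker genes in the 3 adult DN3 arrays and the 3 fetal DN3 arrays, with the replicate number beside each point and a separate vertical scale for each gene. Adult replicates 2 and 3 are low for Xist and high for Uty, adult replicate 3 is high for Cd44 and Kit, and fetal replicates 2 and 3 are high for Hbb-y and Alas2.

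Of 12393 genes, 242 were called higher in fetal DN3 (1.95% of the genes tested) and 165 lower (1.33%). The middle difference of all genes was 0.02, on values that the normalization had brought to a common distribution. The 6 arrays separated by age without overlap for 2306 genes, 18.6% of those tested, most of which did not pass the limits. Without adult replicate 3 the counts were 261 higher and 155 lower. Without adult replicates 2 and 3, the arrays that went against the label female, they were 336 and 249. Without fetal replicates 2 and 3 they fell to 142 and 58, with a single fetal array left.

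**Figure D2:**
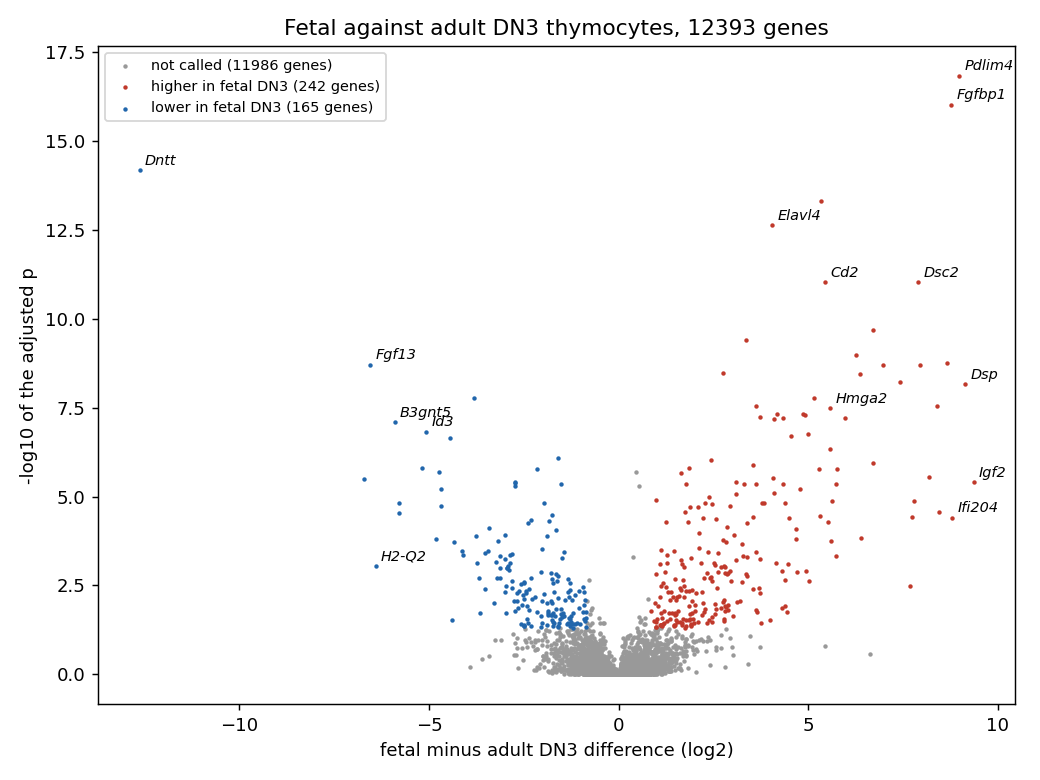
Each point is a gene, placed by its fetal minus adult DN3 difference in log2 and by -log10 of the adjusted p of limma. The 242 genes called higher in fetal DN3 reach 9.36 log2, and the 165 called lower reach -12.63 log2 at Dntt.

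The largest excess in fetal cells belonged to *Igf2*, which encodes a growth factor of fetal tissues. It stood at -0.27, -2.88 and -3.02 in the adult arrays and at 7.46, 7.39 and 7.06 in the fetal arrays, a difference of 9.36 ± 0.75 (adjusted p = 3.9e-06). The fetal arrays lay close together while adult replicate 1 stood above the other adult arrays. *Dsp* codes for desmoplakin, which ties desmosomes to keratin filaments, and stood at -1.49, -2.03 and -1.86 in adult and at 7.55, 6.86 and 7.62 in fetal arrays (9.14 ± 0.40). *Dsg2* encodes a desmosomal cadherin and stood at -1.81, -1.76 and -1.78 against 6.23, 5.83 and 6.41 (7.94 ± 0.31). A second desmosomal cadherin gene, *Dsc2*, stood at -0.23, -0.08 and -0.15 against 8.01, 7.15 and 8.08 (7.90 ± 0.19). The 3 genes code for the core of the same adhesive junction, and for each of them the 2 ages were far apart on all arrays. *Pdlim4*, a PDZ and LIM domain protein that binds actinin, stood between -0.04 and -0.02 in adult arrays and at 9.08, 9.02 and 8.71 in fetal arrays (8.97 ± 0.07). *Fgfbp1* encodes a carrier that releases fibroblast growth factors from the matrix and stood between -0.09 and -0.05 against 8.93, 8.69 and 8.50 (8.77 ± 0.08).

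*Enah*, an actin regulator of the Ena/VASP family, stood at -4.47, -4.51 and -4.23 in adult and at 4.32, 4.07 and 4.35 in fetal arrays (8.65 ± 0.33). *Adam19*, a membrane metalloprotease, stood between -0.16 and -0.04 against 8.29, 8.30 and 8.44 (8.43 ± 0.82). *Nlrp6*, a sensor of the NOD-like receptor family, stood between -0.36 and -0.32 against 7.89, 8.35 and 7.90 (8.39 ± 0.42). In these genes the spread within an age was under 1 log2 and the gap between ages over 7. *Cntnap2*, a neurexin-like adhesion molecule known from neurons, stood at 1.29, 0.69 and 0.25 against 8.95, 8.83 and 9.01 (8.18 ± 0.63). *Ifi204*, an interferon-inducible DNA-binding protein, stood at -0.98, -0.80 and -0.80 against 8.32, 6.99 and 8.46 (8.78 ± 0.89). *Ifi204* belongs to a family of near-identical genes, so its value may include signal of its relatives.

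*Dntt* had the largest difference of all genes and was lower in fetal cells. It stood at 6.92, 7.09 and 6.83 in adult arrays and at -5.75, -5.72 and -5.58 in fetal arrays, a difference of -12.63 ± 0.16 (adjusted p = 6.6e-15). Its range of differences over every left-out array or pair of arrays was -12.70 to -12.55. *AW112010*, a transcript induced by inflammatory signals, stood at 1.45, 0.99 and 1.94 against -5.51, -5.12 and -5.13 (-6.71 ± 0.52). *Fgf13*, a cytosolic relative of the fibroblast growth factors, stood at 3.42, 4.64 and 3.97 against -2.63, -2.58 and -2.44 (-6.56 ± 0.25). *Klf9*, a zinc finger factor, stood at 5.15, 4.08 and 3.71 against -1.55, -1.47 and -1.39 (-5.78 ± 0.53). For these genes the fetal arrays agreed to within about 0.4 log2, more closely than the adult arrays did.

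*H2-Q2*, a class I gene of the Qa region, stood at 5.28, 7.23 and 6.35 in adult arrays and at -0.28, -0.11 and 0.04 in fetal arrays (-6.41 ± 0.91). Class I genes are near-identical in sequence, and its probe set may bind several of them. *B3gnt5*, a glycosyltransferase of the lactoceramide series, stood at 0.11, -0.29 and 0.92 against -5.55, -5.92 and -5.50 (-5.90 ± 0.33). *Ly6d*, a surface protein that marks early lymphoid progenitors, stood at 6.25, 6.42 and 5.78 against 0.40, 1.13 and -0.42 (-5.78 ± 0.57). *Casp1*, the inflammatory caspase, stood at 0.58, 1.16 and 2.03 against -3.97, -3.93 and -3.90 (-5.19 ± 0.37). *Id3*, an inhibitor of E proteins that rises with pre-T cell receptor signals, stood at 4.99, 6.24 and 5.2 against 0.23, 0.97 and 0.01 (-5.07 ± 0.30). *Hmgn3*, a nucleosome-binding protein, stood at 3.92, 4.12 and 3.81 against -1.12, -0.02 and -1.49 (-4.82 ± 0.56). The 10 largest differences in each direction, which comprise the genes above apart from *Dsc2*, kept their calls under every alternative run. For *B3gnt5* and *Fgf13* a second probe set differed by 0.00 and 0.01, and one of the 3 probe sets for *Dsp* and one of the 2 for *Igf2* differed by 0.05 and 0.20. The same was found for *Cntnap2* (1 of 3 probe sets called, lowest difference 0.06), *Enah* (2 of 4, 0.02), *Dsg2* (3 of 6, 0.02) and *Klf9* (3 of 7, highest 0.06). *Dntt* had 2 of 3 probe sets called, and its smallest difference was -3.17. For *Dsc2* 1 of 2 probe sets was called, and the lowest difference was 0.43. These differences rest on part of the probe sets of each gene.

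**Figure D3:**
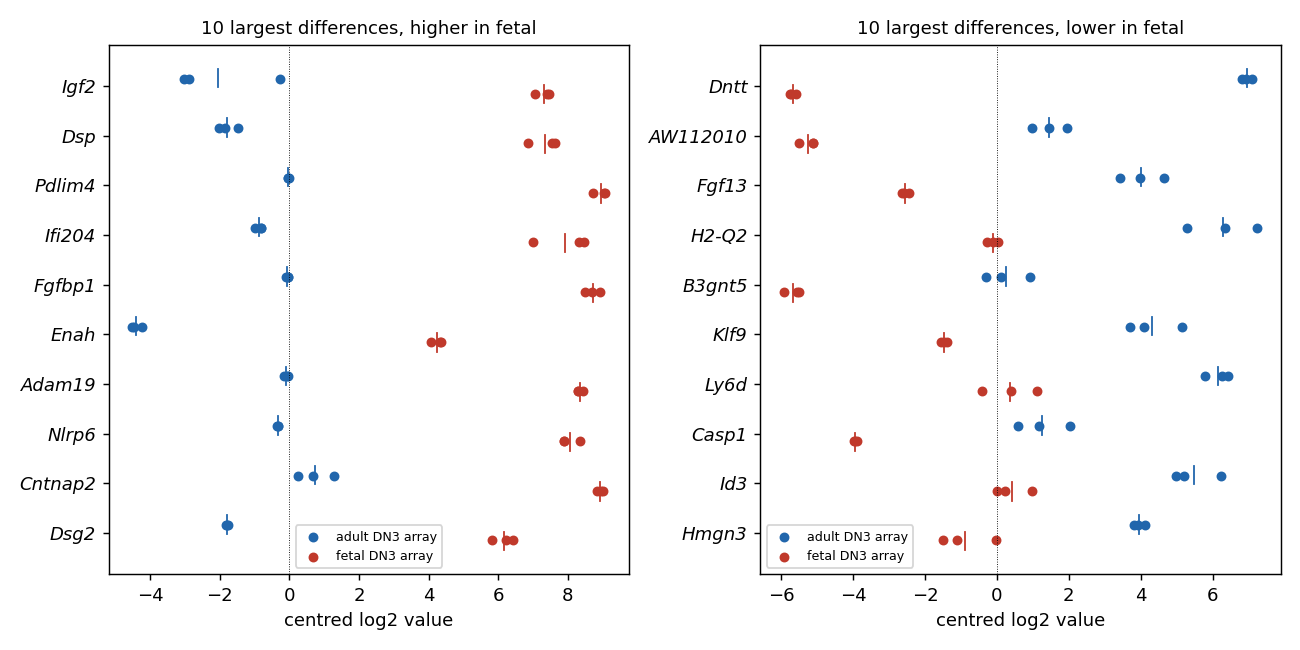
Centred log2 values of the 10 genes with the largest positive difference (left) and the 10 with the largest negative difference (right), with a point for each adult and fetal DN3 array and a bar at each group mean. In all 20 genes the adult and fetal arrays do not overlap, and the gap is widest for Dntt.

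Of 13 measured genes of V(D)J recombination and end joining, 2 were higher, 1 was lower, 10 were not called and the median difference was 0.02. Beside *Dntt* these were *Polm*, which codes for polymerase μ, a relative of terminal transferase that acts in end joining, and *Rag2*, an essential subunit of the recombinase. *Polm* stood between -0.09 and -0.03 in adult arrays and at 3.83, 2.80 and 3.15 in fetal arrays (3.31 ± 0.27, adjusted p = 4.4e-06). *Rag2* stood at 0.79, 0.32 and 0.05 against 1.97, 1.8 and 1.82 (1.48 ± 0.32, adjusted p = 0.019). Its call was lost when adult replicate 2 or 3 or any fetal array was left out (1.31 to 1.68, with adjusted p of 0.059 to 0.082 where lost). *Rag1*, which encodes the other subunit, stood at 1.78, 2.33 and 2.06 against 2.59, 2.35 and 2.44 (0.40 ± 0.43) and did not pass. Terminal transferase and polymerase μ thus differed in opposite directions between the ages, and the groups overlapped for neither.

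The pre-T cell receptor itself did not pass the limits in any measured chain. *Ptcra*, the gene of pre-Tα, stood at 4.63, 4.05 and 3.19 in adult and at 4.75, 4.98 and 4.58 in fetal arrays (0.82 ± 0.67). Differences for *Cd3d*, *Cd3e* and *Cd3g* were 0.60 ± 0.81, 0.42 ± 0.45 and -0.03 ± 0.77, and the kinase gene *Zap70* differed by 0.38 ± 0.31. With SEs of this size, differences of over 1 log2 in *Ptcra*, *Cd3d* or *Cd3g* would lie within the error. Of 21 measured genes of the receptor and its proximal signals, 2 were higher, 1 was lower and the median difference was 0.02. *Cd2*, an adhesion receptor that pairs with CD48, stood at -0.13, -0.01 and -0.01 in adult arrays and at 4.98, 5.43 and 5.75 in fetal arrays (5.44 ± 0.13, adjusted p = 9.3e-12). *Txk*, a kinase of the Tec family, stood between -0.42 and -0.34 against 3.97, 3.99 and 4.35 (4.49 ± 0.45). *Ptpn22*, a phosphatase that dampens receptor signals, stood at 1.73, 1.49 and 1.35 against 0.02, -0.02 and 0.07 (-1.50 ± 0.20). The costimulatory receptor gene *Cd28* stood at 7.61, 8.10 and 6.99 against 5.69, 5.30 and 5.63, without overlap, and did not pass (-2.03 ± 0.59, adjusted p = 0.11), while its second probe set was called lower with a difference of -2.08.

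Of 30 measured genes of the Notch pathway, which drives T lineage commitment, 2 were higher, none was lower and the median difference was 0.05. *Nrarp*, a target gene whose product feeds back on Notch, stood at -4.79, -3.45 and -2.10 in adult arrays and at 0.33, 0.34 and 0.19 in fetal arrays (3.73 ± 0.66, adjusted p = 0.0051). The adult arrays of this gene spread over more than 2 log2, and in a fit of the 6 DN3 arrays alone the adjusted p was 0.079. *Heyl*, a repressor of the Hes and Hey family, stood between -0.15 and -0.02 against 0.26, 0.94 and 1.88 (1.09 ± 0.26, adjusted p = 0.041). Leaving out adult replicate 1, 2 or 3 or fetal replicate 2 or 3 ended that call, with differences from 0.67 to 1.48 over all left-out arrays. The receptors *Notch1* and *Notch3* differed by 0.12 ± 0.55 and 0.50 ± 0.67, and the targets *Hes1* and *Dtx1* by 0.56 ± 0.42 and 1.40 ± 0.52. *Dtx1* did not overlap between ages, at 1.73, 0.69 and 0.19 against 2.35, 2.21 and 2.26, and had an adjusted p of 0.27. *Notch3* was lowest of all 6 arrays in adult replicate 3, at 0.78 against 3.08 and 4.83 in the other adult arrays.

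Among 35 measured transcription factors of the T lineage 2 were higher and 2 lower, with a median of -0.01. *Spib*, an Ets factor of the DN3 stage, stood at 4.29, 4.28 and 2.87 in adult and at 7.0, 6.77 and 7.03 in fetal arrays (3.12 ± 0.60, adjusted p = 0.0091). *Id2* and *Id3* code for inhibitors of the same E proteins and moved in opposite directions, since *Id2* stood at -1.65, -1.26 and -0.95 against 1.14, 1.30 and 1.38 (2.56 ± 0.26). *Tcf4*, an E protein gene, stood at 0.96, 0.45 and 0.45 against -1.12, -1.13 and -1.51 (-1.88 ± 0.36). Its adjusted p was 0.051 to 0.053 without adult replicate 1 or fetal replicate 3, which ended the call. Of the 6 *Tcf4* probe sets 3 were called, and the highest difference was 0.05. *Lef1* stood at 5.11, 4.55 and 4.04 against 6.00, 5.98 and 6.81 without overlap and did not pass (1.70 ± 0.59, adjusted p = 0.23). The commitment factor *Bcl11b* differed by -0.55 ± 0.49, *Runx1* by -0.62 ± 0.44, *Ets1* by -0.20 ± 0.59 and *Gfi1* by -0.06 ± 0.32. None of the 5 *Runx1* probe sets was called, and their differences reached 1.33 in the other direction. Of 14 genes that define the DN3 stage, 3 were higher, namely *Rag2*, *Spib* and *Cdh1*, and none was lower. Their median difference was 0.46, above the 0.02 of all genes. The *Spib* call held without any single array, whereas those of *Rag2* and *Cdh1* did not. Among stage genes with array values given here, adult replicate 3 was the lowest adult array for *Spib*, *Rag2*, *Cdh1*, *Lef1*, *Ptcra* and *Notch3*. For *Rag1* it was not. Of the stage's defining genes, *Ptcra*, *Cd3d*, *Spib* and *Lef1* stood above their median over the 18 arrays in all 6 DN3 arrays. At least *Rag1*, *Rag2*, *Cdh1* and *Notch3* did so as well.

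Growth regulators of fetal tissues gave the largest share of calls of the lists examined, which were chosen with earlier results of these data known. That share was 27.8%, little above the 25.6% of the interferon response list, against 3.28% of all genes. Of 18 measured genes 5 were higher and none was lower, with a median of 0.11. Besides *Igf2* they were *Igf2bp1*, an RNA-binding protein of fetal cells, *Hmga2*, an architectural chromatin factor of fetal stem cells, and the imprinted genes *Ndn* and *Grb10*. *Igf2bp1* stood between -3.17 and -3.13 in adult arrays and at 2.61, 3.33 and 3.69 in fetal arrays (6.36 ± 0.26). *Hmga2* stood at -6.12, -5.66 and -5.71 against -0.23, -0.21 and -0.33 (5.57 ± 0.28). *Ndn* stood between -3.91 and -3.86 against 0.26, 0.17 and 1.13 (4.40 ± 0.70). Of the 8 *Ndn* probe sets 2 were called, and the lowest difference was 0.01. *Grb10*, an adaptor that restrains insulin-like growth factor signals, stood at -0.76, -1.91 and -0.96 against 0.36, 0.32 and 0.34 (1.55 ± 0.28). The *Grb10* call rests on 1 of 3 probe sets, whose mean differed by 0.53, and its adjusted p was 0.10 in a fit of the 6 DN3 arrays alone. The receptor gene *Igf1r*, through which IGF2 acts, was higher as well, at -0.25, -0.17 and -0.35 against 1.29, 1.00 and 2.01 (1.69 ± 0.27). Its adjusted p was 0.056 in the fit of the 6 arrays alone, and its second probe set, not called, differed by 0.16. Other imprinted genes of the list, such as *Mest* (-0.29), *Peg3* (0.42) and *Igf2r* (0.13), did not pass, nor did *Lin28a* (0.04).

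Adhesion molecules were mostly higher where they were called, 5 higher and 1 lower of 35 measured, with a median of 0.02. With *Dsg2* and *Dsc2* these were 2 integrin chains and E-cadherin. *Itgae*, the integrin αE chain that binds E-cadherin, stood at 0.69, 1.13 and -0.04 in adult arrays and at 5.72, 5.18 and 5.19 in fetal arrays (4.77 ± 0.40, adjusted p = 6.3e-06). *Cdh1*, the E-cadherin gene, stood at 1.43, 1.67 and 0.72 against 3.37, 2.92 and 3.27 (1.92 ± 0.47, adjusted p = 0.045). That call was lost without any one of the 6 arrays, with differences of 1.64 to 2.12 and adjusted p of 0.073 to 0.17. *Itgav*, the integrin αv chain, stood at -1.06, -2.06 and -1.66 against -0.08, -0.06 and 0.28 (1.64 ± 0.28), and the mean of its 3 probe sets, of which 1 was called, differed by 0.58. The lower gene was *Alcam*, a ligand of CD6, at -0.09, 1.08 and 1.87 against -2.03, -1.8 and -1.59 (-2.76 ± 0.52). In a fit of the 6 DN3 arrays alone the adjusted p of *Itgav* and *Alcam* were 0.063 and 0.083. *Itga6* did not pass (1.42 ± 0.60), nor did *Itgb5* (0.01 ± 0.13). None of the 4 *Itgb5* probe sets was called, and the highest difference among them was 1.28.

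Of 37 measured regulators of actin 5 were higher and none lower, 32 were not called and the median was 0.05. *Fscn1*, which codes for the bundling protein fascin, stood at -5.63, -5.80 and -4.38 in adult and at 0.81, 1.41 and 1.12 in fetal arrays (6.38 ± 0.74). Of the 4 *Fscn1* probe sets 1 was called, and the lowest difference was 0.01. *Evl*, the relative of *Enah*, stood at -6.97, -2.98 and -2.60 against -0.08, 0.33 and 0.13 (4.31 ± 0.87, adjusted p = 0.014), and adult replicate 1 set much of that size. Without adult replicate 1 the difference was 2.92, and without fetal replicate 2 or 3 the adjusted p was 0.057 or 0.051. *Dstn*, an actin-severing protein, stood at -1.36, -0.90 and -0.69 against 0.72, 0.90 and 0.60 (1.72 ± 0.25). The myosin gene *Myo6* was called with an adjusted p of 0.041 (1.67 ± 0.40), which was 0.12 to 0.18 without adult replicate 2 or 3 or fetal replicate 1 or 3. Of 29 semaphorins, plexins, ephrins and Robo genes, 3 were higher and none lower. *Nrp1*, the neuropilin gene, stood at 2.72, 3.34 and 2.85 against 5.57, 5.25 and 5.48 (2.46 ± 0.54, adjusted p = 0.024). *Robo1* and *Sema7a* differed by 2.47 ± 0.58 and 2.02 ± 0.42, without overlap between ages, and the second *Sema7a* probe set differed by 0.03. Each of these calls was lost without most single arrays. The adjusted p was 0.051 to 0.094 for *Nrp1* without any one of the 6, up to 0.14 for *Robo1* without any but fetal replicate 2, and up to 0.072 for *Sema7a* without adult replicate 2 or 3 or fetal replicate 2 or 3.

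**Figure D4:**
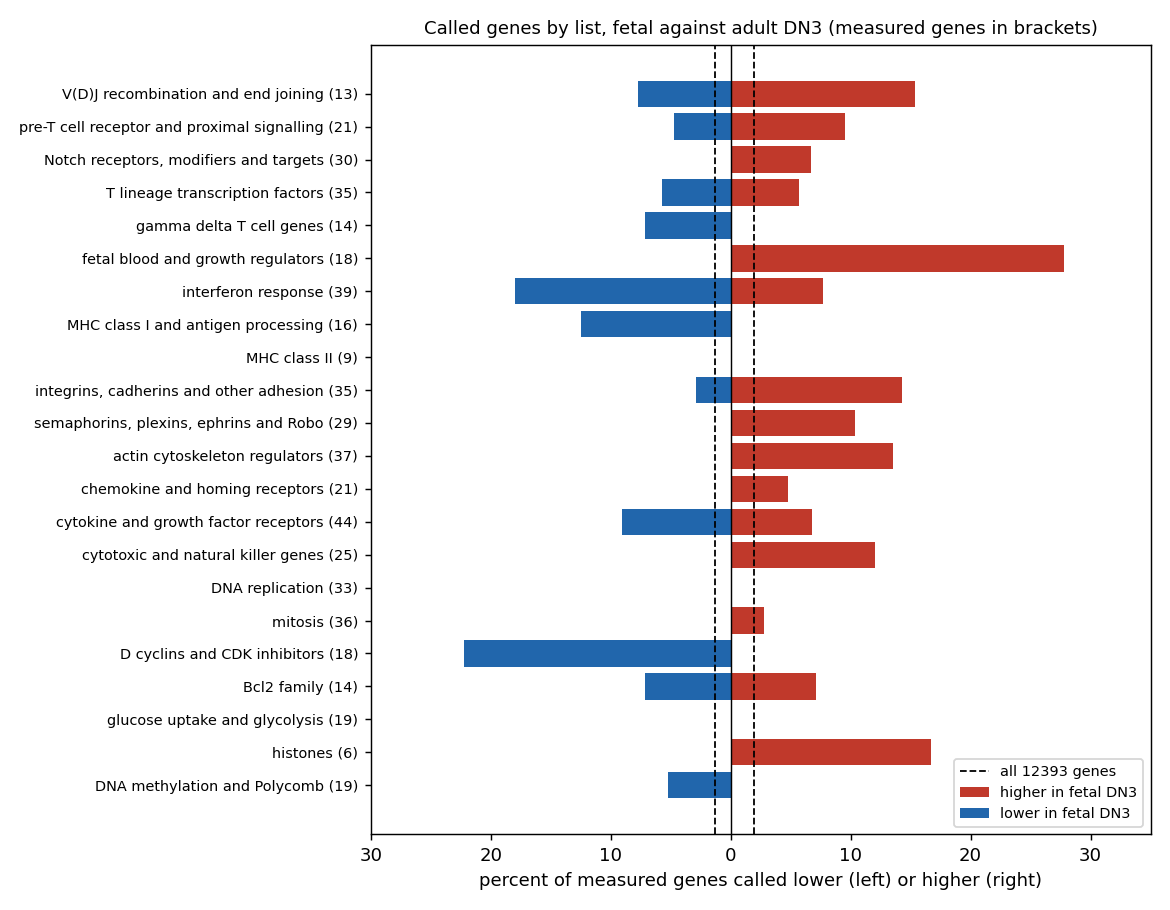
For each gene list shown the bars give the percent of its measured genes called lower (left) and higher (right) in fetal DN3. Dashed lines mark the 1.33% and 1.95% of all 12393 genes. The lists of DN3 stage genes, sorting markers, sex-linked genes and erythroid, B lineage, myeloid, dendritic, stromal and mature T markers are left out. Growth regulators, adhesion and actin genes lie mostly to the right and D cyclins and CDK inhibitors to the left. The interferon list reaches both sides, further to the left. DNA replication, MHC class II and glycolysis have no called gene.

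The interferon response list held calls in both directions, 3 higher and 7 lower of 39 measured, with a median of -0.29. The lower genes take part in defence against infection. *Rsad2*, which codes for viperin, stood at 0.53, 0.38 and 0.98 in adult arrays and at -3.10, -2.91 and -2.68 in fetal arrays (-3.53 ± 0.60, adjusted p = 0.0039). Of the 3 *Rsad2* probe sets 1 was called, and the highest difference was 0.02. *Iigp1*, a GTPase of the cell-autonomous defence, stood at 1.30, 0.73 and 1.23 against -2.37, -1.85 and -0.98 (-2.82 ± 0.48). *Ifi47*, another such GTPase, stood at 0.81, 0.85 and 0.95 against -0.79, -0.58 and -0.81 (-1.59 ± 0.11, adjusted p = 8.2e-07). *Gbp6*, *Dhx58*, *Ifit2* and *Rtp4* differed by -2.97 ± 0.63, -2.64 ± 0.54, -1.76 ± 0.40 and -1.20 ± 0.25, each without overlap. These 4 calls were not stable to single arrays, and that of *Dhx58* rests on 1 of 3 probe sets (highest difference 0.01). *Gbp6* reached an adjusted p of 0.081 (lost without adult replicate 1 or 2 or fetal replicate 2 or 3) and *Dhx58* 0.070 (adult 2, fetal 1 or 2), while *Ifit2* reached 0.15 (adult 2 or 3, fetal 2 or 3) and *Rtp4* 0.096 (adult 1 or 3, fetal 1 or 2).

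The genes called higher on that list were *Ifi204* and the neighbouring *Ifitm1* and *Ifitm3*, which code for membrane proteins that block virus entry. *Ifitm1* stood at -9.82, -10.25 and -3.31 in adult arrays and at -0.49, 0.53 and -0.34 in fetal arrays (7.69 ± 1.29, adjusted p = 0.0033). *Ifitm3* stood at -5.82, -5.74 and -2.78 against 0.04, 0.70 and -0.04 (5.02 ± 0.80). In both, adult replicate 3 was the adult array nearest to the fetal ones, and *Ifitm1* differed by 9.94 without it. In a fit of the 6 DN3 arrays alone their adjusted p were 0.17 and 0.075. *Ifitm2* stood at -2.71, -2.79 and -1.23 against 0.13, 1.15 and 0.07 and did not pass (2.69 ± 0.89, adjusted p = 0.19). The Ifitm genes are close relatives, and shared signal between their probe sets was not tested.

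Promoters of the list were searched for a pair of GAAA boxes set 2 bases apart, spelled GAAANNGAAA, on both strands and with overlapping matches counted. This is the core of the element through which interferon-activated factors bind. The windows ran 300 bases, from 250 before each start, in the promoter table of RefSeq (GRCm38.p6), which held 29 of the 39 genes. The motif was in 19 of the 29 (65.5%), against 3.99% of all 27025 genes with a promoter there. It was in 1 of the 3 lower genes with a promoter, 1 of the 2 higher genes and 17 of the 24 that were not called. Of all called genes with a promoter it was in 5 of the 120 lower (4.17%) and 4 of the 188 higher (2.13%). The matches of 4 genes are shown because they carried the same element while their transcripts differed by -3.53 (*Rsad2*), 5.02 (*Ifitm3*), -0.80 ± 0.62 (*Ifit1*) and 0.05 (*Stat2*). Capitals mark the motif, and a match written TTTCNNTTTC is the same motif on the opposite strand.
Rsad2 (chr12:26456553-26456582, minus strand): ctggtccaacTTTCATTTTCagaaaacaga
Ifitm3 (chr7:141010706-141010735, minus strand): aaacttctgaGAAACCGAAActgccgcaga
Ifit1 (chr19:34640775-34640804, plus strand): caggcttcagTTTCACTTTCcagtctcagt
Stat2 (chr10:128270266-128270295, plus strand): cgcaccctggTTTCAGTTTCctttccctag
The first match of *Rsad2* began 120 bases before its start and that of *Ifit1* shown here 104, whereas that of *Ifitm3* lay just past the start. A match describes these letters only.

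Of 16 measured class I and antigen processing genes 2 were lower and none higher, with a median of -0.26. *H2-D1*, a classical class I gene, stood at 1.45, 1.12 and 0.79 in adult arrays and at -2.09, -1.88 and -1.67 in fetal arrays (-3.00 ± 0.41, adjusted p = 5.7e-04). Of its 9 probe sets 4 were lower, and the highest difference among them was 0.01. *Tapbp*, the chaperone tapasin, differed by -0.88 ± 0.17, just past the fold limit, and fell below the limit without adult replicate 1 or fetal replicate 1 or 2 (-0.80 at the smallest). The other classical gene *H2-K1* differed by -1.54 and did not pass on the probe set chosen for it, whereas its other 3 probe sets were called lower, down to -2.33. The light chain *B2m* differed by -0.85 and the transporter *Tap1* by -0.93, and neither passed. None of 9 class II genes was called (median 0.10).

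Cytokine and growth factor receptors split, with 3 higher and 4 lower of 44 measured. *Bmpr1a*, a receptor of bone morphogenetic proteins, stood at -1.46, -0.89 and -2.03 in adult and at 2.77, 2.66 and 2.50 in fetal arrays (4.10 ± 0.35). *Tnfrsf9*, the costimulatory receptor 4-1BB, stood at -1.41, -1.66 and -1.68 against 1.49, 0.64 and 1.70 (2.86 ± 0.43). *Tnfrsf18*, the gene of GITR, went the other way, at 2.08, 1.83 and 1.40 against -0.66, -0.43 and -0.48 (-2.30 ± 0.24). Only 1 of 5 probe sets was called for *Bmpr1a* and 1 of 3 for *Tnfrsf9*, with lowest differences of 0.03 and 0.01. *Il27ra*, a receptor for interleukin 27, stood at 2.69, 1.60 and 1.14 against -0.57, -0.45 and -0.51 (-2.32 ± 0.36), with an adjusted p of 0.071 in a fit of the 6 DN3 arrays alone. *Il6st* (-1.72 ± 0.40) and *Tnfrsf1a* (-1.0 ± 0.24) were lower with adjusted p of 0.035 and 0.039. Their calls ended without adult replicate 2 or any fetal array, and for *Il6st* also without adult replicate 1, with adjusted p up to 0.16 and 0.18. Of 21 chemokine and homing receptors only *Cxcr3*, which answers interferon-induced chemokines, was called, at -0.22, -0.19 and -0.37 against 1.54, 0.77 and 2.08 (1.72 ± 0.32). Its adjusted p was 0.096 in the fit of the 6 arrays alone. The prostaglandin receptor gene *Ptger4* of that list differed by -1.55 on the probe set chosen for it, not called, and by -1.24 on a second, called lower. *Cxcr4* differed by -0.11 ± 0.35.

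None of 33 DNA replication genes was called, with differences from -0.67 to 0.65 and a median of 0.15. Of 36 mitosis genes 1 was called, *Cenpa*, a centromere histone (1.14 ± 0.28), and it was lost without any array but adult replicate 3 (adjusted p up to 0.18). The D cyclins and CDK inhibitors, which set the entry into the cycle, held 4 lower and none higher of 18, with a median of -0.37. *Cdkn1a*, the gene of p21, stood at 1.75, 2.03 and 1.31 in adult and at -1.12, -0.34 and -0.93 in fetal arrays (-2.50 ± 0.41). *Cdkn2c*, the gene of p18, stood at 2.19, 2.75 and 1.65 against 0.54, -0.04 and -0.54 (-2.21 ± 0.41), with an adjusted p of 0.073 in a fit of the 6 DN3 arrays alone. These 2 genes code for inhibitors, whereas the other 2 act for the cycle. *Ccnd3*, the cyclin needed at β-selection, differed by -1.30 ± 0.29 and *Mycn* by -1.59 ± 0.39, with adjusted p of 0.027 and 0.047. Both calls were lost without adult replicate 2 or 3 or fetal replicate 1 or 3, and *Mycn* also without fetal replicate 2 (adjusted p up to 0.11 and 0.20). Of 14 genes of the Bcl2 family, the death gene *Pmaip1* was higher (3.61 ± 0.74) and the survival gene *Bcl2l2* lower (-1.95 ± 0.35). *Pmaip1* lost its call without adult replicate 2 or fetal replicate 1 or 2 (adjusted p up to 0.066). The *Bcl2l2* call rests on 1 of 4 probe sets, whose mean differed by -0.47, and its adjusted p was 0.059 in the fit of the 6 arrays alone.

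Of 25 cytotoxic and natural killer genes 3 were higher and none lower, with a median of 0.04. *Gzmb*, the granzyme B gene, stood at -2.37, -3.41 and -2.35 in adult arrays and at 0.08, 0.49 and -0.08 in fetal arrays (2.87 ± 0.57), with an adjusted p of 0.056 and 0.064 when adult replicate 2 or fetal replicate 2 was left out. *Nfil3*, a factor of innate lymphoid cells, stood between -0.36 and -0.22 against 0.65, 1.29 and 0.96 (1.23 ± 0.18), and *Id2* was the other. *Gzma* stood between -0.39 and -0.11 against 0.99, 0.93 and 0.96 and did not pass (1.19 ± 0.69). Among 14 γδ T cell genes only the gamma chain segment listed as *Trgv4* was called, at 6.65, 6.89 and 5.21 against 4.31, 4.11 and 4.17 (-2.05 ± 0.31). That call rests on 1 of 3 probe sets, whose mean differed by -0.94 (adjusted p = 0.14), and in a fit of the 6 DN3 arrays alone *Trgv4* had an adjusted p of 0.13. The chromatin and histone lists held *Ezh1*, a Polycomb methyltransferase, as lower (-1.71 ± 0.30, 1 of 19) and the linker histone *H1f2* as higher (2.20 ± 0.39, 1 of 6). None of 19 glycolysis genes was called on the probe set chosen for it, whereas 2 of the 4 probe sets of the glucose transporter gene *Slc2a3* were called higher, up to 2.36. Over all lists, 12 of the 539 genes not called had another probe set that was. Besides *Cd28*, *H2-K1*, *Ptger4* and *Slc2a3* these were *Ccnd2*, *Cd160*, *Cfl2*, *Igf2bp3*, *Itga9*, *Lyz1*, *Sema4a* and *Tox*.

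Of each list of markers of other cells at most 1 gene was called, beside 3.28% of all genes. A single call says little about a cell type. The list means include the called gene, and *Rag1* and *Rag2*, genes of the DN3 stage, are on the B lineage and mature T lists. Of 17 erythroid genes 1 was called, *Gata1*, at -0.03, -0.33 and -0.55 in adult and at 5.23, 4.75 and 4.13 in fetal arrays (5.0 ± 0.30). It was as high in fetal replicate 1, where *Hbb-y* and *Alas2* stood at the median, as in the other fetal arrays. The mean over the 17 genes was -0.77 to -0.13 in adult and -0.26, 0.46 and 0.64 in fetal arrays, and *Klf1*, another erythroid factor, differed by 0.08 ± 0.06. Of 13 B lineage genes *Ighm* was lower, at 0.99, 2.08 and 1.69 against -1.21, -1.26 and -0.99 (-2.74 ± 0.23), on 1 of its 11 probe sets, of which 2 were called and whose mean differed by -0.65. The mean of the B lineage list was 0.14 to 0.59 in adult and -0.08 to 0.16 in fetal arrays. Of 21 myeloid genes *Lyz2* was called on the probe set chosen for each gene, at -1.17, -0.32 and 0.36 against -3.84, -3.69 and -3.48 (-3.29 ± 0.63), with list means of -0.54 to -0.05 and -0.66 to -0.56. *Lyz1*, a lysozyme gene of near-identical sequence, had 2 of 3 probe sets called lower, down to -4.35. *Mpo*, a myeloid granule gene, stood at 0.10 in adult replicate 3 and between -6.18 and -5.68 in the other 5 arrays. Of 12 dendritic cell genes *Ly6d* was lower, with list means of 0.25 to 0.61 and -0.28 to -0.12. Of 22 stromal genes the keratin *Krt18* was higher (1.93 ± 0.41), which was lost without adult replicate 1 or 2 or fetal replicate 2 or 3 (adjusted p up to 0.092), with list means of -0.11 to -0.06 and 0.07 to 0.15. Of 10 markers of double positive and mature T cells *Rag2* alone was called, with list means of -0.23 to 0.37 and 0.15 to 0.34. None of 9 sorting markers and none of 6 sex-linked genes passed. *Xist* still differed by 6.64, with adult replicates 2 and 3 far below adult replicate 1, and *Eif2s3y* by -1.27. The lack of a call thus does not show that the sexes were balanced. The part of other cell types in the differences was not tested.

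Whether a difference was shared with earlier stages was asked with the same limits. At DN2 262 genes were higher in fetal cells (2.11%) and 241 lower (1.94%), and at ETP 764 were higher (6.16%) and 503 lower (4.06%). Of the 242 genes higher at DN3, 103 were higher at DN2 as well, which is 42.6% of the DN3 genes and 39.3% of the DN2 genes, and 91 at ETP (37.6% and 11.9%). Of the 165 lower genes 81 were lower at DN2 (49.1% and 33.6%) and 82 at ETP (49.7% and 16.3%). *Dntt* differed by -12.61 at DN2 and -11.72 at ETP, *Enah* by 8.64 and 7.24, *Igf2bp1* by 6.28 and 6.32, and *Fgf13* by -5.21 and -6.64, so that the age difference of these genes had much the same size at all stages. The 3 comparisons share no array. They do share the fit's estimate of spread and the probe set chosen for each gene, so their calls are not independent.

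The change of the age difference between stages was then tested. Between DN2 and DN3 it rose for 59 genes (0.476%) and fell for 29 (0.234%), and between ETP and DN3 it rose for 212 (1.71%) and fell for 164 (1.32%). Single arrays moved the counts of falls. Against DN2 there were 17 without adult replicate 2 and 15 without fetal replicate 1 or 3, and against ETP there were 90 without adult replicate 2 or fetal replicate 3, 92 without fetal replicate 1 and 105 without fetal replicate 2. A set of 32 genes was higher and a set of 7 lower at DN3 alone with both changes called. *Pdlim4* differed by 0.03 at DN2 and 0.06 at ETP against 8.97 at DN3, *Fgfbp1* by 0.09 and 0.10, and *Dsc2* by 0.16 and 0.26. *Cd2* differed by 0.03 and 0.08 at the earlier stages against 5.44, and *Cntnap2* by 2.18 and 0.13 against 8.18. In the lower set, *Id3* differed by -0.29 and 0.05 at DN2 and ETP, and *Scel*, known from the cornified envelope of the skin, by 0.01 and 0.16. *Scel* stood at 5.50, 5.35 and 3.09 in adult DN3 and at -0.06, -0.11 and 0.09 in fetal DN3 (-4.68 ± 0.44). *Syne2*, which links the nucleus to actin, stood at 3.97, 3.88 and 2.64 against 0.20, -0.01 and 0.04 (-3.42 ± 0.37). *Cdkn1a* differed by 0.80 at DN2 and was higher in fetal ETP by 2.44, opposite to DN3. *Lgalsl*, a galectin-like gene, differed by -2.49 ± 0.40 at DN3 and by 0.62 and -0.06 before.

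Other genes of the set of 32, named here after their values were seen, included genes of neurons, matrix and signalling. *Ctnnd2*, a δ-catenin of neurons, stood between -0.22 and -0.07 in adult and at 4.53, 4.74 and 5.04 in fetal arrays (4.91 ± 0.26). *Elavl4*, a neuronal RNA-binding protein, stood between -0.09 and -0.04 against 3.90, 4.19 and 3.85 (4.05 ± 0.07). *Fbln2*, a matrix fibulin, stood at 2.28, 4.67 and 3.64 against 6.53, 6.19 and 7.17 (3.10 ± 0.42). *Sfrp2*, a secreted inhibitor of Wnt signals, stood between -0.06 and -0.03 against 3.71, 3.16 and 3.11 (3.37 ± 0.11). *Slamf1*, a receptor of lymphocytes, stood between -0.02 and 0.25 against 3.76, 3.17 and 2.56 (3.08 ± 0.27). Of the 3 *Slamf1* probe sets 1 was called, and the lowest difference was 0.04. *Gadd45g*, a stress-induced gene, stood between -0.17 and -0.07 against 2.79, 3.50 and 1.93 (2.86 ± 0.31). Apart from *Fbln2*, these genes lay close to the median in all adult DN3 arrays. The set of 7 also held *Nefh*, a neurofilament (-2.15 ± 0.16), and *Nckap1*, a subunit of the WAVE complex (-1.51 ± 0.12). Without adult replicate 3 the sets held 35 and 19 genes, 26 and 6 of them shared with the sets above, and without adult replicate 1 the lower set held 13. Without adult replicates 2 and 3 they held 71 and 132 genes, with 27 and 6 shared.

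**Figure D5:**
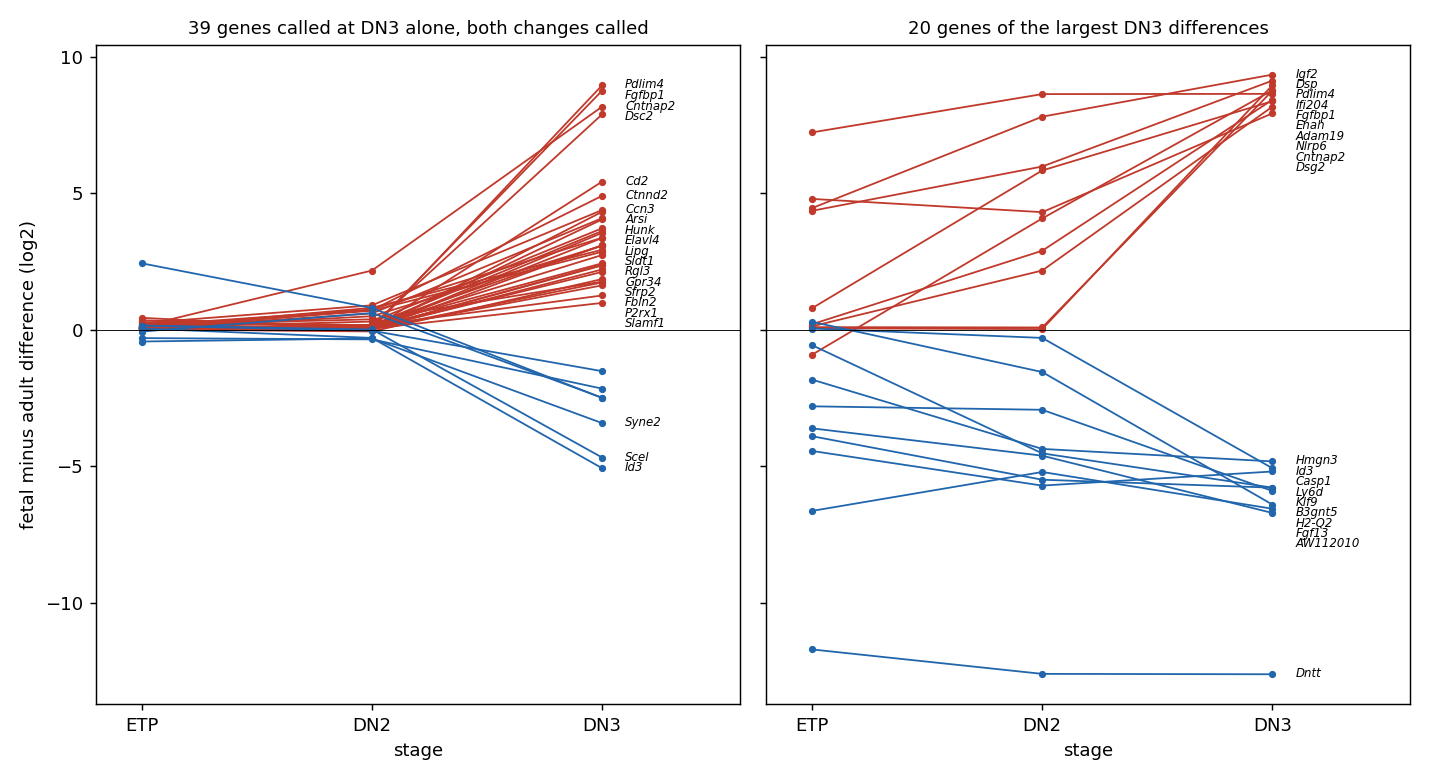
Lines join the fetal minus adult differences, in log2, at ETP, DN2 and DN3, for the 39 genes called at DN3 alone with both changes called (left) and for the 20 genes with the largest DN3 differences (right), with the genes past 3 log2 named in the order of the DN3 value. On the left the lines lie near 0 before DN3 apart from Cdkn1a at ETP (2.44) and Cntnap2 at DN2 (2.18), and on the right Dntt and Enah keep their size from ETP on while Pdlim4 and Fgfbp1 move at DN3.

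Among genes whose DN3 arrays did not overlap, the largest rises of the age difference against ETP were those of *Ifi204*, *Pdlim4*, *Fgfbp1*, *Adam19* and *Cntnap2*, and the largest falls those of *Gzma*, *H2-Q2*, *Ly6d*, *Id3* and *Cdkn1a*. *Gzma* was higher in fetal ETP by 9.15 and in fetal DN2 by 2.94, against 1.19 at DN3. *H2-Q2* differed by 0.30 at ETP and -1.55 at DN2. *Ly6d* differed by -0.56 at ETP and by -4.53 at DN2. *Cd3g* was higher in fetal ETP by 7.37, *Bcl11b* by 3.75 and *Rag1* by 3.72, and none of them passed at DN3. DNA replication and mitosis genes were higher in fetal ETP for 10 of 33 and 14 of 36 genes, and at DN2 for none of either. Of the 39 interferon response genes 11 were lower and 3 higher in fetal DN2, and 14 were lower and none higher in fetal ETP.

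Among the 6 groups, fetal DN3 had the highest mean for 165 of the 242 higher genes (68.2%, against 10.8% of all genes). For 58 of the 242 (24%, against 63.1% of all genes) the other 5 groups lay within 1.8-fold of each other. Adult DN3 had the lowest mean for 97 (40.1%, against 31.6% of all genes). Of the 165 lower genes, fetal DN3 was lowest of the 6 for 79 (47.9%, against 9.82% of all genes) and adult DN3 highest for 73 (44.2%, against 11.6%). The choice of called genes fixes part of these shares. Along the chromosomes, 12346 pairs of neighbouring measured genes could be formed from the order of the RefSeq table. Of the 784 pairs with at least 1 called gene, both were called higher in 15, both lower in 7 and in opposite directions in 7. Pairs with known or alike members included *Ifitm1* with *Ifitm3*, *H2-D1* with *H2-Q2*, and *Igf2bp1* with *B4galnt2*, a glycosyltransferase gene (7.42). *Polm* neighboured *Pgam2*, the muscle phosphoglycerate mutase (4.67), and *Rag2* neighboured *Iftap* (3.25). These pairs were picked after their values were seen.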

How the data were processed

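RNA of sorted thymocytes was amplified in 2 rounds and hybridised to Affymetrix mouse arrays by the authors. The deposited log2 values come from GC-RMA, named GCRMA in the submitters' processing notes (version not given in the sources used here), and the values of each of 22626 probe sets are centred on the median of the 18 arrays. No level is therefore retained, and array number and spread limit the precision. All columns were mapped to a sample by title (0 not mapped).

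limma 3.58.1 in R 4.3.3 fitted 1 mean per group over the 18 arrays, with Benjamini-Hochberg adjustment over all 22626 probe sets. Calls needed an adjusted p under 0.05 and at least 1.8-fold. Changes of the age difference between stages were contrasts of the same fit. Each of 12393 genes was read from 1 probe set, preferring those without a cross-hybridization mark and then the largest SD. Of the probe sets, 20380 named 1 gene, 691 several and 1555 none, and 12369 genes were matched to the RefSeq table. Genes named were the 10 largest called without overlap in each direction, the 4 largest called of each list, the 5 largest changes between stages in each direction, markers and genes the study discusses, with others said to be picked after their values. The members and lists were chosen with earlier results of these data known. The scripts were tested on simulated data, and Python 3.11.15 drew the plots. The alternatives tried are given in the closing section.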

Additional observations from a re-analysis of the deposited data

Results flagged for a closer look

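For the genes below, the fetal minus adult difference at DN3 differed from that at an earlier stage by limma's test of the difference itself, under the limits used for the calls. Values are the DN3 difference minus the earlier one, in log2, over 3 arrays for each group. They come from the same arrays as the results above. Against DN2 and against ETP the difference was larger at DN3 by 8.94 and 8.91 for *Pdlim4*, 8.68 and 8.67 for *Fgfbp1*, 7.74 and 7.65 for *Dsc2* and 6.01 and 8.05 for *Cntnap2*. Rises against DN2 and ETP were 5.41 and 5.36 for *Cd2*, 4.23 and 2.53 for *Itgae* and 4.19 and 4.87 for *Ctnnd2*. Next came rises over both stages, which were 4.00 and 3.94 for *Elavl4*, 3.62 and 3.14 for *Dsg2*, 3.41 and 4.01 for *Gata1* and 3.32 and 3.30 for *Sfrp2*. Smaller rises over both stages were 3.15 and 4.77 for *Dsp*, 2.92 and 3.05 for *Fbln2*, 2.58 and 3.03 for *Slamf1* and 2.26 and 3.24 for *Polm*. The rise for *Gadd45g* was 2.16 and 2.79. Changes in the opposite direction, against DN2 and ETP, were -4.78 and -5.12 for *Id3*, -4.69 and -4.84 for *Scel*, -3.30 and -4.94 for *Cdkn1a* and -3.10 and -2.42 for *Lgalsl*. The remaining falls against both stages were -3.10 and -2.99 for *Syne2*, -2.97 and -3.10 for *B3gnt5*, -1.81 and -1.85 for *Nefh* and -1.48 and -1.67 for *Nckap1*. Against ETP alone the change was called with 9.69 for *Ifi204*, 8.23 for *Adam19*, 7.59 for *Nlrp6*, 5.05 for *Ifitm3*, 4.89 for *Igf2*, 2.75 for *Hmga2*, 2.52 for *Sema7a*, 2.47 for *Bmpr1a* and 2.38 for *Itga9*. It was called in the negative direction with -7.96 for *Gzma*, -7.39 for *Cd3g*, -6.70 for *H2-Q2*, -5.22 for *Ly6d*, -4.30 for *Bcl11b*, -4.12 for *Sema4a*, -3.32 for *Rag1*, -3.10 for *AW112010*, -2.51 for *Ccnd3*, -2.39 for *Trgv4* and -1.17 for *Ptpn22*. The fetal deficit of *Ighm* was smaller at DN3 than at DN2 and ETP, by 5.25 and 1.63. Against DN2 alone the change was called for *Cdkn2c* (3.46), which was lower in fetal cells at both stages and less so at DN3. Among the genes above *Rag1*, *Cd3g*, *Bcl11b*, *Gzma*, *Itga9* and *Sema4a* were not called at DN3 itself.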

How the results depend on the processing

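With weights per array, genes higher and lower at DN3 numbered 434 and 396 in place of 242 and 165. They numbered 371 and 362 by a one-way test of the 6 DN3 arrays alone, without adjustment. With Benjamini-Hochberg adjustment of that test they numbered 96 and 52. The study's own analysis of variance was not rerun. Without adult replicates 2 and 3 the lower genes numbered 249, and without fetal replicates 2 and 3 the counts were 142 and 58. Leaving out 1 array gave 182 to 261 higher and 113 to 155 lower. Rises and falls of the age difference from DN2 to DN3, 59 and 29, were 136 and 82 with weights and 130 and 158 without adult replicates 2 and 3. Falls numbered 13 without fetal replicates 2 and 3, and leaving out 1 array gave 52 to 72 rises and 15 to 35 falls. From ETP to DN3, 212 and 164 became 395 and 547 with weights and 139 and 48 without fetal replicates 2 and 3, with 163 to 214 and 90 to 180 over single arrays left out. The sets of 32 and 7 genes held 60 and 17 with weights and 71 and 132 without adult replicates 2 and 3. They held 51 higher genes without fetal replicates 2 and 3 and 11 lower genes among probe sets spanning at least 1 log2, with 32 to 39 and 5 to 19 over single arrays left out. Calls on the lists, 68 of 607 genes, numbered 105 with weights, 30 without fetal replicates 2 and 3 and 50 to 68 with 1 array left out. The fit of the 6 DN3 arrays alone also ended the calls of *Heyl*, *Evl*, *Myo6*, *Ifit2*, *Rtp4*, *Il6st*, *Tnfrsf1a*, *Cenpa*, *Mycn*, *Krt18*, *Lgalsl* and *Fbln2*, and the mean over a gene's probe sets those of *Heyl*, *Tapbp*, *Mycn*, *Ezh1*, *Rtp4*, *Myo6* and *Il6st*. No named gene that was called in the main fit or in an alternative changed direction between them. Genes called in neither were not checked for this. Same-numbered adult and fetal arrays did not deviate together (r of 0.03, -0.26 and -0.06), so the numbers were not taken as pairs, and a fit that took the replicate number as a block gave DN3 counts of 254 and 202. Where 2 arrays of a group were left out, the lone array was assumed to vary like the other groups.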
